A study of Mus musculus with 16 samples.

Results

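The G1 cyclins, their kinases and the inhibitors of these kinases were described in testicular cells of neonatal mice. They comprise *Ccnd1*, *Ccnd2*, *Ccnd3*, *Ccne1*, *Cdk4*, *Cdk6*, *Cdkn1a*, *Cdkn1b*, *Cdkn2c* and *Cdkn2d*, 10 of the 30451 genes of the deposited count table. They were chosen by name as a family and not by a threshold on their values. Cells were grouped by marker genes and by a pair of proliferation genes, none of which is a member.

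Whole testes were taken at postnatal day 2 (P2) from wild-type mice and from mice with a *Ddx5* conditional knockout in germ cells, in which *Mvh*-Cre, driven by a germ cell promoter, was combined with floxed *Ddx5* alleles (*Ddx5* flox/flox). Somatic cells are therefore not the cells in which this Cre acts. Single cells were released with TrypLE and captured with a droplet kit that tags each mRNA molecule near its 3′ end with a unique molecular identifier (UMI). The labels number 8 libraries for each genotype, but barcodes do not carry that number, so each genotype was handled as 1 library, no test between genotypes was possible, and no p-value is given. By the labels some libraries of both genotypes shared a lane and the others lay in lanes of 1 genotype only. Lane and genotype therefore cannot be fully told apart.

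*Ddx5* itself was 1152 counts per 1000000 UMIs (CPM) in wild-type germ cells and 1736 CPM in germ cells of the other library. That is 1.51 times the wild-type level (95% interval 1.40 to 1.62) over 125 and 12 cells, so these 3′ counts do not show the loss that the label names. The paper reports the other direction at P2, with much lower *Ddx5* mRNA in sorted knockout germ cells by single-cell qRT-PCR. Which exons are deleted is not given in the sources used here, so whether a 3′ tag can check the deletion is not known. The second library is therefore called the library labelled *Ddx5* knockout, or the knockout-labelled library, throughout. CRE was counted with 0 UMIs in the wild-type library and 20 in the knockout-labelled one, and 9 of its 12 germ cells held it. GFP, from an *Oct4*-GFP transgene, was found in 92 of 125 and in 8 of 12 germ cells.

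In G1, D-type cyclins bind CDK4 or CDK6, and the complexes begin the phosphorylation of the retinoblastoma protein, which frees E2F factors. E2F then raises cyclin E, whose complex with CDK2 takes the cell past the restriction point into S phase. The Cip/Kip inhibitors bind cyclin-CDK complexes broadly, whereas the INK4 inhibitors bind CDK4 and CDK6 and keep D-type cyclins off them. In the neonatal testis, Sertoli cells and the interstitial and peritubular cells still divide, and gonocytes, the precursors of spermatogonial stem cells, leave quiescence around birth.

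Wild-type barcodes held 84263163 UMIs and knockout-labelled barcodes 67558106. Barcodes were kept when 2000 or more genes were detected and mitochondrial genes gave no more than 10% of UMIs, 6329 and 4950 in number, with medians of 11170 and 11668.5 UMIs. A cell was taken as Sertoli with at least 3 UMIs of *Amh*, as Leydig with at least 20 over *Cyp11a1*, *Cyp17a1* and *Hsd3b1*, as peritubular myoid with at least 5 of *Acta2* and 2 of *Myh11*, as stroma with *Pdgfra* and at most 2 of *Amh*, and as germ with at least 3 of the 4 genes *Dazl*, *Ddx4*, *Mael* and *Stk31* detected. The gates held 2256 and 1635 Sertoli, 177 and 143 Leydig, 764 and 524 myoid, 3590 and 3005 stroma, and 125 and 12 germ cells in the wild-type and the knockout-labelled library. Gates were not exclusive. Of the myoid cells 674 and 478 also met the stroma gate. Of the germ cells 39 in wild type and 0 in the knockout-labelled library also met the Sertoli gate. The libraries shared 12 barcode sequences. Scrublet called 284 (4.49%) and 296 (5.98%) of the cells as doublets, and these were kept.

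Marker genes that the gates did not use were highest in the gate of their own name. Summed Sertoli markers (*Sox9*, *Rhox8*, *Cst12*, *Aard*) were 4218 to 4785 CPM in the Sertoli gate and at most 811 CPM elsewhere, the latter in wild-type germ cells. Germ markers (*Pou5f1*, *Sall4*, *Dppa3*, *Tdrd1*, *Gtsf1*) were 224 to 580 CPM in the germ gate and at most 19.3 CPM in the others. Stromal markers (*Dcn*, *Ogn*, *Dlk1*, *Lum*, *Tcf21*) were 5052 to 5138 CPM in the stroma gate and 1471 to 1520 CPM in the myoid gate, most of whose cells are *Pdgfra*-positive. Myoid markers (*Tagln*, *Cnn1*, *Mylk*, *Des*) were 1218 to 1322 CPM in the myoid gate and 516 to 578 CPM in stroma. Leydig markers (*Insl3*, *Star*, *Cyp11b1*, *Hsd17b3*) were 1684 to 2024 CPM in their gate and at most 335 CPM in the others.

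Levels below are UMIs summed over the cells of a gate and divided by all UMIs of these cells, in CPM. Each UMI is 1 tagged 3′ end, so gene length does not enter. Brackets hold 95% intervals, exact Poisson for a level, exact conditional binomial for a ratio and exact Clopper-Pearson for a share. All cover counting error only, since cells of 1 library are not replicates. A ratio was counted as past the fold where it lay beyond 1.5-fold with its whole interval on the same side of 1 and the gene had at least 50 UMIs over both groups.

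The D-type cyclins differed in which gate they were highest in, and *Ccnd2* held the largest share of the 3 in every gate but stroma in both libraries. In knockout-labelled germ cells that rests on 22 UMIs against 20 of *Ccnd3*. In the 54 and 25 myoid cells that met no other gate *Ccnd3* stood above *Ccnd2* instead, with overlapping intervals. The levels there were 335 against 279 CPM in wild type and 371 against 347 CPM in the knockout-labelled library. *Ccnd2* (chr6:127125162-127152193, minus strand, GRCm38) was the main D-type cyclin of Sertoli cells, at 859 CPM in wild type and 1014 CPM in the knockout-labelled library. It stood at 680 CPM in wild-type germ cells, 316 and 327 CPM in myoid cells, 257 and 241 CPM in stroma and 131 and 186 CPM in Leydig cells. No neighbours in this order had overlapping intervals in either library. *Ccnd2* was detected in 2243 of 2256 wild-type Sertoli cells, and in 95.4% of those with enough UMIs after each was thinned to 5000. In Leydig cells, where it was lowest, the thinned share was 39.5%.

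*Ccnd3* (chr17:47505051-47599691, plus strand) differed from *Ccnd2* mainly in Sertoli cells, the highest somatic gate of *Ccnd2* and the lowest of *Ccnd3*. It was highest in stroma, at 370 and 355 CPM, followed by 284 and 319 CPM in myoid cells and 99.6 and 113 CPM in Leydig cells, and then by Sertoli cells, at 69.4 and 67.8 CPM. Wild-type germ cells held 166 CPM, between the myoid and the Leydig gate, with no overlap of intervals.

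*Ccnd1* (chr7:144929931-144939925, minus strand) was a cyclin of the germ gate in the wild-type library. Wild-type germ cells held 123 CPM and 97 of 125 cells had a UMI. After thinning to 5000 UMIs 31.7% of germ and 1.12% of Sertoli cells had one, where the median depths were 34394 and 13711 UMIs. The somatic gates of that library held 3.59 to 6.01 CPM. Even the low Sertoli level came largely from cells with germ markers, as 152 of the 222 *Ccnd1* UMIs of the Sertoli gate lay in the 39 cells that also met the germ gate, and without them the level was 1.98 CPM. Over the 67 germ cells that met no other gate *Ccnd1* stood at 152 CPM (136 to 169).

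As shares of the summed D-type cyclin UMIs, *Ccnd2* made up 91.9% (91.6 to 92.2) in wild-type and 93.6% in knockout-labelled Sertoli cells. *Ccnd3* made up 58.6% and 59.2% in stroma and 47.1% and 49.2% in myoid cells. *Ccnd1* made up 12.7% in wild-type germ cells, beside 70.1% *Ccnd2* and 17.2% *Ccnd3*, and at most 2.25% in any somatic gate. These are shares of transcripts and not of protein.

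**Figure D1:**
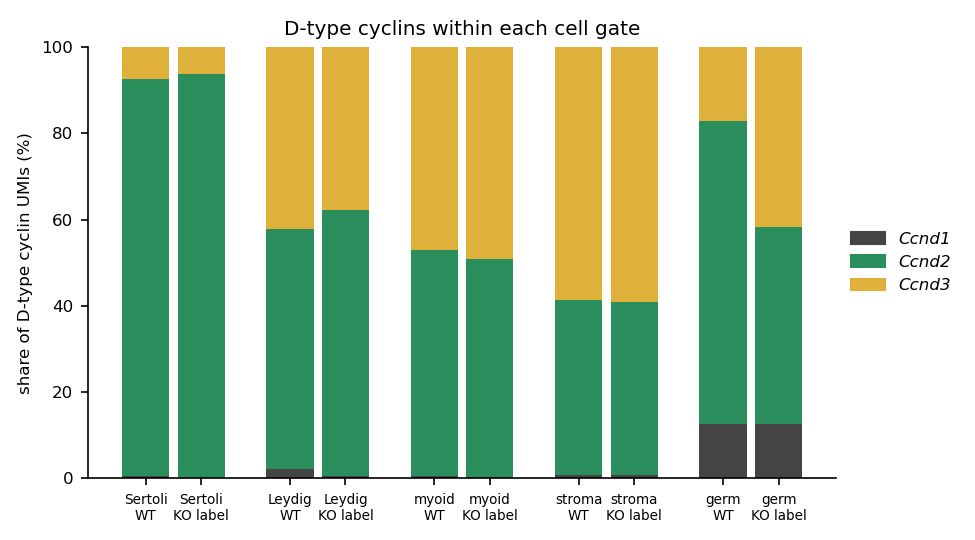
Stacked bars show the share (%) of *Ccnd1*, *Ccnd2* and *Ccnd3* in their summed UMIs for each cell gate, for wild type and the library labelled *Ddx5* knockout. *Ccnd2* fills 91.9% and 93.6% of the Sertoli bars and *Ccnd3* 58.6% and 59.2% of the stroma bars, while the germ bar of the knockout-labelled library rests on 48 UMIs.

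*Ccne1* (chr7:38097984-38107534, minus strand), cyclin E1, was a low transcript in all gates. It stood at 23.6 CPM in wild-type germ cells, 19.7 and 20.4 CPM in myoid cells, 18.1 and 17.6 CPM in stroma, 9.15 and 9.88 CPM in Sertoli cells, and 1.66 and 2.44 CPM in Leydig cells. The wild-type germ and myoid intervals overlapped, as did those of myoid cells and stroma in both libraries.

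*Cdk4* (chr10:127063534-127067920, plus strand), the kinase partner shared by the D-type cyclins, was present in every gate. Wild-type levels ran from 191 CPM in Leydig cells to 385 CPM in Sertoli cells, with 343 CPM in myoid cells, 323 CPM in germ cells and 323 CPM in stroma. *Cdk6* (chr5:3341485-3531008, plus strand), the other D-type cyclin kinase, was highest in the Sertoli gate, at 39.3 and 38.4 CPM, followed in wild type by germ cells at 31.5 CPM. Knockout-labelled germ cells held 8.63 CPM from 4 UMIs, and cells that met no gate held 29.2 and 20.7 CPM. The other 3 somatic gates held 10.0 to 14.7 CPM, with overlapping intervals between neighbours. *Cdk6* gave 9.26% and 9.27% of the summed *Cdk4* and *Cdk6* UMIs in Sertoli cells and 3.08% and 3.21% in stroma.

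Of the Cip/Kip inhibitors, *Cdkn1b* (p27, chr6:134920401-134925513, plus strand) was the even one. It lay between 24.4 and 55.2 CPM in all 5 gates of both libraries, highest in myoid cells and stroma and lowest in Leydig and germ cells. *Cdkn1a* (p21, chr17:29090976-29100727, plus strand), a target of p53, was sparse in the somatic gates, at 1.10 to 12.6 CPM, and stood at 42.3 CPM in wild-type germ cells. It gave 61.4% of the UMIs of the pair in wild-type germ cells, against 1.95% in wild-type myoid cells and 9.99% in wild-type Sertoli cells. The 236 and 175 cells that met no gate held *Cdkn1a* at 42.0 and 48.2 CPM.

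Over all cells of a gate, the INK4 inhibitors were split by type as well. *Cdkn2c* (p18, chr4:109660876-109667189, minus strand) was highest in myoid cells, at 82.6 and 70.1 CPM, then in stroma, at 69.1 and 59.1 CPM, and in Sertoli cells, at 46.5 and 47.4 CPM. It was low in Leydig cells, at 9.63 and 6.26 CPM, and in germ cells, at 9.25 and 8.63 CPM. *Cdkn2d* (p19, chr9:21288410-21291407, minus strand) led in Sertoli cells instead, at 46.0 and 51.5 CPM, ahead of stroma at 29.1 and 31.2 CPM and myoid cells at 23.1 and 22.9 CPM. These leads held in non-cycling cells, as defined below, but not in cycling ones. There *Cdkn2c* was 221 and 206 CPM in stroma against 185 and 179 CPM in myoid cells. *Cdkn2d* was 74.3 and 89.3 CPM in cycling stroma against 62.8 and 74.6 CPM in cycling Sertoli cells. The part of the cycling share in the order of gates was not tested.

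**Figure D2:**
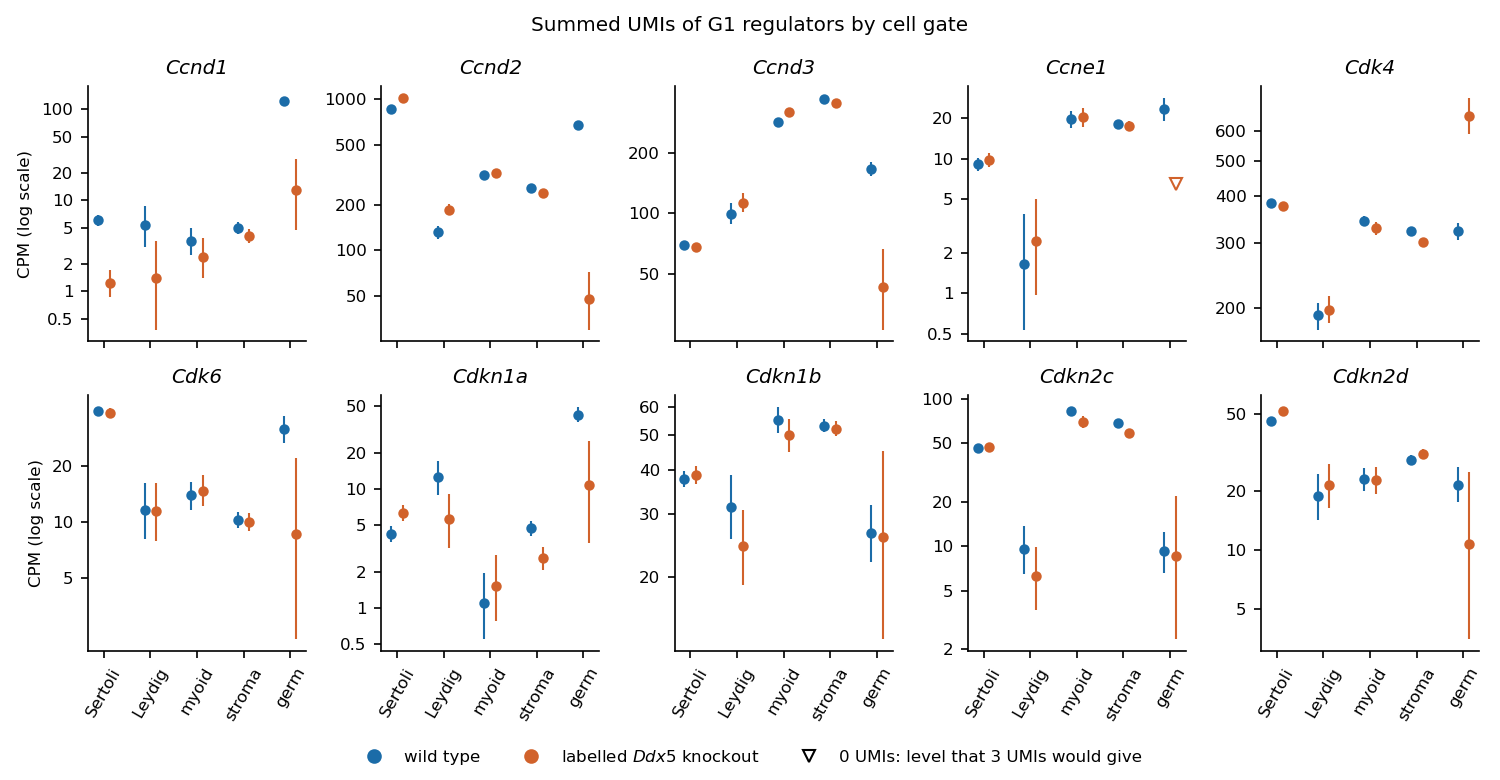
Points show summed UMIs in CPM (log axis) of each gene in 5 cell gates, for wild type (blue) and the library labelled *Ddx5* knockout (orange), with bars for exact Poisson 95% intervals. *Ccnd1* and *Cdkn1a* of wild type are highest in germ cells (123 and 42.3 CPM), and the triangle marks the 6.48 CPM that 3 UMIs of *Ccne1* would give where 0 were counted.

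The somatic gate with the highest level was the same in both libraries for 7 of the 10 members. The exceptions were *Ccnd1* and *Cdkn1a*, both sparse in somatic gates, and *Cdkn1b*, whose myoid and stroma intervals overlapped. Where cells meeting more than 1 gate were left out, so that 54 and 25 myoid cells remained, the count was 4 of 10.

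Set against each wild-type somatic gate in turn, 2 of the 10 members, *Ccnd1* and *Cdkn1a*, were past the fold upwards in wild-type germ cells in all 4, and 0 were past it downwards. Of all genes tested in the same way, 25.1% were higher and 9.96% lower in germ cells than in every somatic gate. *Ccnd1* was 20.5-fold (17.5 to 24.1) the Sertoli level and 34.3-fold (24.5 to 49.5) the myoid level. *Cdkn1a* was 3.36-fold (2.36 to 4.89) the Leydig level and 38.6-fold (21.1 to 78.7) the myoid level. Over germ cells of no other gate *Cdkn1a* was 43.9 CPM.

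*Ccnd2* was 2.65-fold (2.54 to 2.76) the stroma level in wild-type germ cells but 0.791 times (0.762 to 0.822) the Sertoli level. *Cdkn2c* was lower in germ cells than in 3 of the 4 somatic gates, at 0.112 times (0.0794 to 0.154) the myoid level, 0.134 times the stroma level and 0.199 times the Sertoli level. Against Leydig cells it stood at 0.961 times (0.581 to 1.61).

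Cycling and non-cycling cells of each gate were then compared. Cells with at least 4 UMIs of *Mki67* and *Top2a* together were taken as cycling and those with at most 1 as non-cycling. By this rule 816 of 2256 wild-type Sertoli cells (36.2%) and 657 of 1635 knockout-labelled ones (40.2%) were cycling, as were 28.8% and 25.2% of myoid cells and 19.7% and 17.4% of stroma. In the Leydig gate 5 and 9 cells were. Cycling cells held more UMIs, with medians of 18770 against 11946.5 in wild-type Sertoli cells, and a rule on UMIs favours deep cells.

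Members were called here only when past the fold in both libraries. In Sertoli cells 3 of 9 tested members were higher and 0 lower, beside 5.70% and 1.51% of all genes. In myoid cells 3 of 8 were higher and 1 lower, beside 7.48% and 2.52%. Stroma had 4 of 10 higher and 1 lower, beside 9.23% and 5.64%. In Leydig cells 1 of 5 was higher and 0 lower, beside 5.71% and 2.92%. Over the 4 somatic gates that makes 11 of 32 pairs of a member and a gate higher in cycling cells and 2 lower. The myoid and stroma counts share most of the myoid cells and are not independent. The median log2 ratio of the members was 0.60 and 0.10 in Sertoli cells, 1.0 and 0.47 in Leydig cells, 0.32 and 0.47 in myoid cells and 0.70 and 0.49 in stroma. That of all genes lay from -0.03 to 0.04 over these comparisons.

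*Cdkn2c*, an INK4 inhibitor, had the largest ratio of all members in Sertoli, myoid and stromal cells. In wild-type stroma it stood at 221 against 11.8 CPM in non-cycling cells, a ratio of 18.7 (16.6 to 21.1), and in knockout-labelled stroma at 206 against 10.1 CPM, a ratio of 20.3 (17.7 to 23.4). In Sertoli cells it stood at 87.5 against 7.78 CPM in wild type and 88.6 against 5.50 CPM in the knockout-labelled library, ratios of 11.3 (9.39 to 13.6) and 16.1 (12.6 to 20.9). The myoid ratios were 10.9 and 10.9. The transcript of a CDK4/6 inhibitor was thus concentrated in the cells with proliferation markers.

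Cyclin E1 had the next largest ratio in stroma. *Ccne1* was 49.7 against 6.0 CPM in wild-type stroma and 51.9 against 5.47 CPM in knockout-labelled stroma, ratios of 8.28 (6.93 to 9.94) and 9.48 (7.78 to 11.6). Its ratios were 5.39 and 6.28 in myoid cells and 3.6 (2.73 to 4.80) and 4.90 (3.49 to 7.04) in Sertoli cells. *Cdkn2d* was 74.3 against 12.6 CPM in wild-type stroma, a ratio of 5.89 (5.18 to 6.71), and 89.3 against 12.0 CPM in the knockout-labelled library, a ratio of 7.45 (6.49 to 8.57). In Sertoli cells, the gate where it was highest, its ratios were 2.05 (1.84 to 2.28) and 2.55 (2.26 to 2.88), with 30.6 and 29.3 CPM in non-cycling cells.

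*Ccne1* and *Cdkn2d* are shown by sequence because both were higher in cycling cells of the same 3 gates and E2F sites are a textbook element of genes that rise towards S phase. The sequences come from the RefSeq promoter windows (GRCm38.p6) and hold the bases within 250 upstream of the transcription start that lie outside annotated exons. Printed are chr7:38107535-38107740 on the minus strand for *Ccne1* and chr9:21291408-21291459 on the minus strand for *Cdkn2d*. Capitals mark GC boxes (GGGCGG) and CCAAT boxes (CCAAT) on either strand.
Ccne1: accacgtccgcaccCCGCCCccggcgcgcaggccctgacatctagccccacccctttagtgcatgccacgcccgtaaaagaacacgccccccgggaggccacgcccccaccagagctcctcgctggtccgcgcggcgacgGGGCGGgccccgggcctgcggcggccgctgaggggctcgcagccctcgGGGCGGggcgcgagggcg
Cdkn2d: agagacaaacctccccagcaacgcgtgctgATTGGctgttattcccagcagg
The *Ccne1* window holds 3 GC boxes and the *Cdkn2d* window 1 CCAAT box. No window of a member held an E2F match by the letters TTTCCCGC, TTTCGCGC, TTTGCCGC or TTTGGCGC, or by TCCCGC, which the first of them contains, on either strand. Of 32851 promoter windows of 250 bases 1.86% held one of the former and 16.9% the latter, 33.8% a CCAAT box and 32.7% a GC box, and several member windows were shorter. Windows of *Cdkn2c* lay wholly in annotated exons, and *Ccnd1* and *Ccnd2* were not matched. A match is a description of letters and not of a factor's site.

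*Cdkn1b* had the smallest ratios of the members called higher in stroma, 1.55 (1.42 to 1.70) and 1.62 (1.46 to 1.79). They were 1.40 and 1.53 in Sertoli cells and 1.28 and 1.44 in myoid cells, where 1 library or both stayed short of 1.5. *Cdk4* was near even, at 1.02 and 1.07 in Sertoli cells, 1.22 and 1.33 in myoid cells and 1.30 and 1.33 in stroma. *Ccnd3* ran from 0.755 to 0.972 over the same gates and *Cdk6* from 0.599 to 1.07.

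*Ccnd2* went in opposite directions between gates. In stroma it was lower in cycling cells, at 136 against 307 CPM in wild type and 119 against 285 CPM in the knockout-labelled library, ratios of 0.442 (0.418 to 0.468) and 0.420 (0.392 to 0.449). In myoid cells its ratios were 0.630 (0.582 to 0.681) and 0.470 (0.422 to 0.523). In Sertoli cells, in which it is the main D-type cyclin, they were 0.870 (0.851 to 0.891) and 0.877 (0.856 to 0.899). In Leydig cells it was higher instead, at 375 against 117 CPM and 546 against 147 CPM, ratios of 3.19 (2.40 to 4.18) and 3.72 (3.06 to 4.50). All 5 and 9 cycling Leydig cells also met another gate. They held 322 and 447 CPM of *Amh* against 28.4 and 46.5 CPM in non-cycling Leydig cells, and the 4 other Sertoli markers summed to 1703 and 1405 CPM against 225 and 249 CPM. The part of Sertoli RNA in the Leydig ratios was not tested.

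*Ccnd1* and *Cdkn1a* gave no call over both libraries. In wild-type Sertoli cells *Ccnd1* was 9.14 against 2.39 CPM, a ratio of 3.83 (2.68 to 5.57), but 0.719 in cells that met no other gate. In the knockout-labelled library it was 0.766 against 1.97 CPM. *Cdkn1a* was 1.65 times (1.16 to 2.36) the non-cycling level in wild-type Sertoli cells and 0.524 times (0.377 to 0.724) in knockout-labelled ones. Without cells of other gates the wild-type value was 0.830.

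**Figure D3:**
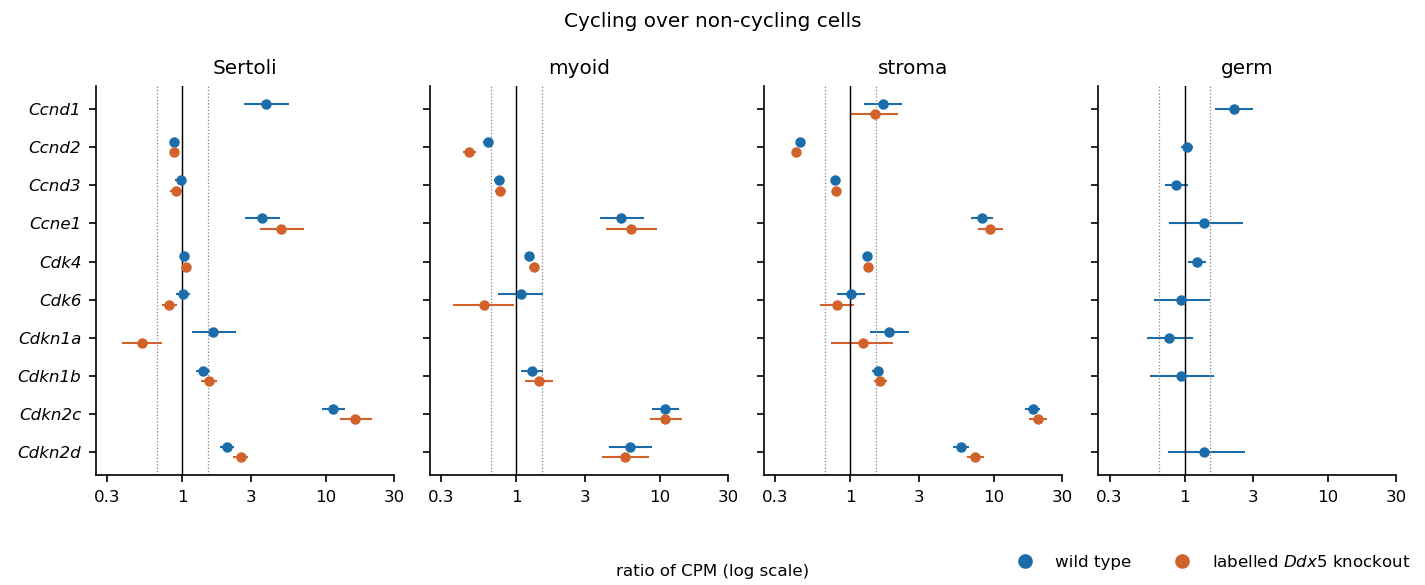
Points show the ratio of CPM in cycling over non-cycling cells (log axis) for each gene with at least 50 UMIs in the comparison, in wild type (blue) and the library labelled *Ddx5* knockout (orange), with 95% counting intervals, and dotted lines stand at 1.5-fold either way; the germ panel holds wild type only. *Cdkn2c* lies farthest right in the Sertoli, myoid and stroma panels (10.9 to 20.3) and *Ccnd2* farthest left in stroma (0.442 and 0.420).

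Germ cells were compared in wild type, since 3 cells of the knockout-labelled library were cycling. Over 75 cycling and 37 non-cycling cells, 1 of 9 tested members was higher and 0 were lower, beside 6.62% and 7.41% of all genes. That member was *Ccnd1*, at 140 against 63.8 CPM, a ratio of 2.20 (1.64 to 3.00). With stricter barcode limits and after thinning 0 members were called higher, and a stricter cycling rule changed the counts too, as given below. The median depths of the cycling and non-cycling groups were 39615 and 19753 UMIs. *Ccne1* stood at 25.7 against 18.8 CPM, a ratio of 1.37 (0.781 to 2.55). *Cdkn2d* stood at 24.1 against 17.5 CPM, a ratio of 1.37 (0.769 to 2.63), and *Cdkn2c*, at 9.62 against 6.26 CPM, had under 50 UMIs. The intervals of *Ccne1* and *Cdkn2d* include both 1 and 1.5-fold, so neither is excluded at this depth. *Ccnd2*, at 681 against 656 CPM, had a ratio of 1.04 (0.943 to 1.14).

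Within cycling cells, members differed in where they were highest. Cycling cells of the Sertoli, myoid, stroma and wild-type germ gates were ranked by 12 mitotic genes over 12 replication genes and divided into 3 groups of equal size. *Ccne1* was mostly at the replication end. In wild-type stroma it was 91.3 CPM there and 6.70 CPM at the mitotic end, 0.0734 times as much (0.0454 to 0.113), and in Sertoli cells 29.2 and 2.09 CPM. The ratios over the 3 somatic gates and both libraries ran from 0.0244 to 0.177.

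*Cdkn2c* ran the other way. In wild-type stroma it was 99.1 CPM at the replication end and 335 CPM at the mitotic end, 3.38 times as much (3.00 to 3.82), and the 6 ratios ran from 1.62 to 3.38. *Cdkn1b* likewise was higher at the mitotic end, at 1.74 to 2.5 times. *Cdkn2d* was higher towards mitosis in myoid cells and stroma, at 1.87 to 3.41 times, but stood at 1.09 (0.936 to 1.28) and 0.957 (0.817 to 1.12) in Sertoli cells.

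In the somatic gates *Cdk4*, *Ccnd3* and *Ccnd2* were lower at the mitotic end. *Cdk4* was 0.597 to 0.663 times as high at the mitotic end in the 3 gates of both libraries. *Ccnd3* was 0.335 (0.284 to 0.393) and 0.380 (0.318 to 0.453) in Sertoli cells and 0.622 to 0.796 in the other gates. *Ccnd2* was 0.425 and 0.438 in stroma and 0.856 and 0.941 in Sertoli cells. These ratios rest on a ranking of the same cells and are given as values.

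Wild-type germ cells were ranked in the same way, with 25 cells in each group, but their groups lay closer together. From the replication to the mitotic end the replication genes summed to 2696 and 1638 CPM in germ cells and to 3100 and 355 CPM in wild-type stroma, and the mitotic genes to 869 and 2653 CPM and to 851 and 7353 CPM. The ends of the germ ranking therefore do not stand for the same positions as in somatic cells. *Ccne1* was 0.534 (0.305 to 0.922) times as high at the mitotic end and *Ccnd1* 0.697 (0.548 to 0.884). *Cdk4* stood at 1.07 with an interval that includes 1, *Ccnd2* at 0.924 (0.835 to 1.02) and *Ccnd3* at 0.874 (0.699 to 1.09). The inhibitors stood at 1.31 (0.822 to 2.12) for *Cdkn1a*, 1.34 (0.760 to 2.44) for *Cdkn1b*, 1.63 (0.676 to 4.34) for *Cdkn2c* and 1.12 (0.638 to 2.01) for *Cdkn2d*, all with intervals that include 1. These germ ratios cannot be set against the somatic ones.

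**Figure D4:**
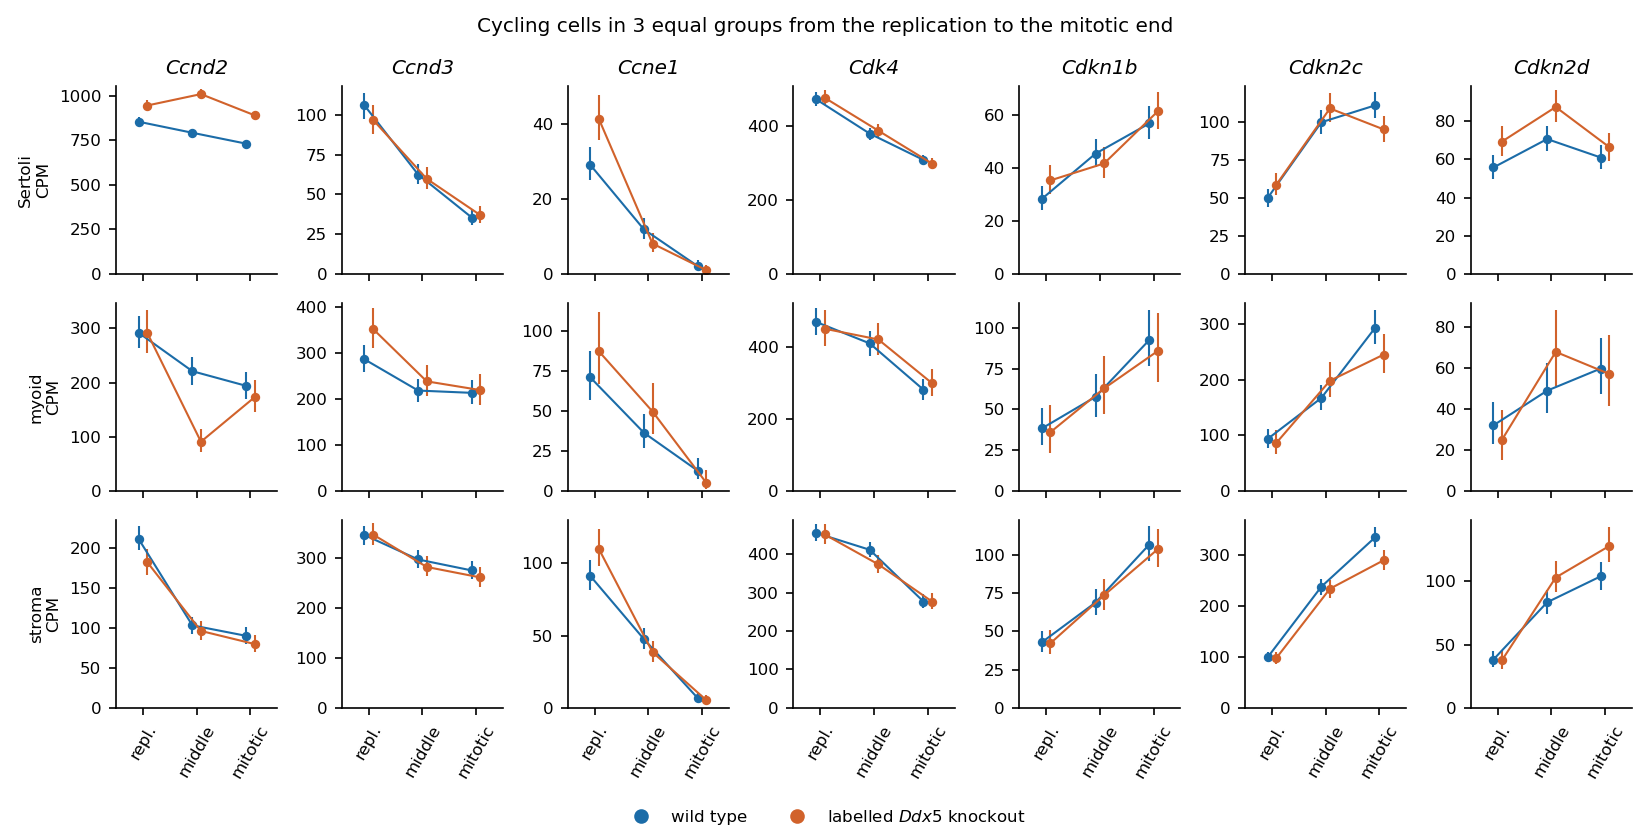
Points joined by lines show CPM of genes in cycling Sertoli, myoid and stromal cells, in 3 groups of equal size from the replication to the mitotic end of the cycle, with exact Poisson 95% intervals, for wild type (blue) and the library labelled *Ddx5* knockout (orange). *Ccne1* stands at 6.70 CPM and *Cdkn2c* at 335 CPM at the mitotic end of wild-type stroma.

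A list of 22 further genes of the G1 to S step was followed in the same comparison. In Sertoli cells 10 of 20 tested were past the fold upwards in both libraries, in myoid cells 10 of 18, in stroma 13 of 20 and in Leydig cells 1 of 8. The shares of all genes called so were 5.70%, 7.48%, 9.23% and 5.71% in the same order. Past it downwards was *Cdkn1c*, the inhibitor p57, in Leydig cells, and 0 in the other 3 gates. All 5 and 9 cycling Leydig cells also met another gate, so no cycling cell of the Leydig gate alone was counted. Over all cells *Cdkn1c* was 542 and 668 CPM in the Leydig gate, 25.9 and 28.5 CPM in Sertoli cells and 213 and 213 CPM in stroma. The part of RNA from other cell types in the Leydig ratios was not tested. The median log2 ratio of the list was 0.55 and 0.64 in Sertoli cells, 0.89 and 0.73 in myoid cells, 1.26 and 1.18 in stroma and 0.22 and -0.06 in Leydig cells, where the libraries differ in sign. Genes higher in 2 or more gates were ranked by their median ratio over both libraries of the gates that called them, so that the call itself holds each value above 1.5. The 3 largest were *Ccna2*, the S and G2 cyclin, at 69.3, *E2f2*, an activating E2F, at 15.5, and *Ccne2*, the paralogue of *Ccne1*, at 7.72. The 3 smallest were *E2f1*, also an activating E2F, at 1.64, *Rb1*, the retinoblastoma gene, at 1.95, and *Tfdp1*, the E2F partner, at 1.97. In stroma *Ccne2* had ratios of 14.6 and 8.02 and *Ccna2* of 93.5 and 80.7, on either side of *Cdkn2c*.

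For each member the genes most like it were sought over the 16 somatic sums (4 gates, cycling or not, 2 libraries), by Pearson's r of log2(CPM + 10) over 6850 genes. These r describe sums that share libraries and cells. *Cdkn2c* was most like *Pola1* (r = 0.988) and *Ncapg2* (0.986), genes of DNA polymerase alpha and of condensin. *Ccne1* was most like *Tcf19* (r = 0.975) and *Pola1* (0.974). *Ccnd3* was most like *Ncs1* (r = 0.990) and *Cpxm1* (0.987), and *Ccnd2* like *Ninj1* (r = 0.961) and *2810004N23Rik* (0.948). *Cdk4* was most like *Nudt21* (r = 0.973) and *Ptma* (0.964) and *Cdk6* like *Hs6st1* (r = 0.978) and *Sema6c* (0.976). *Cdkn1b* was most like *Ugdh* (r = 0.983) and *Arhgdia* (0.957) and *Cdkn2d* like *Jpt1* (r = 0.964) and *Nxt1* (0.961). For the sparse *Ccnd1* they were *Id2* (r = 0.739) and *Uimc1* (0.728) and for *Cdkn1a* *Ptpmt1* (r = 0.846) and *Mars* (0.830), the weakest likeness of the 10.

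Between libraries, somatic levels of the members were close. Of 36 pairs of a member and a somatic gate with enough UMIs, 0 were past the fold upwards in the knockout-labelled library and 3 downwards. Several other settings gave 1 or more upwards, and after thinning 0 were downwards, as given below. Sertoli cells had 0 higher and 1 lower of 10, beside 2.41% and 4.08% of all genes. Leydig cells had 0 and 1 of 7, beside 2.25% and 1.90%. Myoid cells had 0 and 0 of 9, beside 1.29% and 2.00%, and stroma 0 and 1 of 10, beside 1.87% and 2.42%. The median log2 ratio of the members was 0.03 in Sertoli cells and -0.08 in stroma, and that of all genes -0.02 and -0.01.

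The lowest was *Ccnd1* in Sertoli cells, at 1.24 against 6.01 CPM, 0.207 times (0.141 to 0.295). Among cells of no other gate it was 1.29 against 2.03 CPM. The others were *Cdkn1a* in Leydig cells, at 5.57 against 12.6 CPM, 0.441 times (0.230 to 0.810), from 16 and 38 UMIs, and *Cdkn1a* in stroma, at 2.62 against 4.67 CPM, 0.562 times (0.430 to 0.729). With barcodes of 2500 or more genes and no more than 5% of UMIs from mitochondrial genes, the Leydig ratio was 3.44, in the opposite direction and without a call. A single wild-type stromal cell held 27 of the 182 *Cdkn1a* UMIs and a single wild-type Leydig cell 17 of 38. Erythroid markers were 4.32 CPM in wild-type and 1199 CPM in knockout-labelled Leydig cells and 66.3 and 767 CPM in stroma, and their part in these ratios was not tested. In Sertoli cells *Cdkn1a* went the other way, at 6.29 against 4.19 CPM, 1.5 times (1.20 to 1.87), just short of the fold. In non-cycling Sertoli cells alone it was 8.38 against 3.18 CPM, 2.63 times (1.87 to 3.75) and past the fold upwards, beside 2.08% of all genes, and in cycling ones 0.837 times (0.598 to 1.16). Without cells of other gates *Cdkn1a* was 6.29 against 2.82 CPM over all Sertoli cells, 8.44 against 2.99 CPM over non-cycling ones and 4.30 against 2.48 CPM over cycling ones, so that the direction in cycling cells turned. Between the libraries *Cdkn1a* thus differed in direction from Sertoli cells to stroma.

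Abundant members were even. *Cdk4* lay at 0.936 to 1.04 times wild type in the 4 somatic gates and *Ccnd3* at 0.960 to 1.14. *Ccnd2* was 1.18 times (1.16 to 1.20) wild type in Sertoli cells and 1.42 times (1.24 to 1.62) in Leydig cells, where *Amh* was 84.9 against 44.5 CPM. *Cdkn2c* was 0.854 times (0.806 to 0.906) in stroma and 0.848 times (0.757 to 0.949) in myoid cells. Intervals such as these exclude 1 by counting alone and say nothing of the spread between animals.

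Germ cells of the libraries differed widely, over 12 cells and 463254 UMIs against 125 cells and 4322274 UMIs. Of 9 tested members 6 were lower and 1 higher in the knockout-labelled library, beside 44.0% and 9.72% of all genes. The median log2 ratio of all genes was -0.83 and that of the members -1.87. By the rule above 3 of 12 and 75 of 125 cells were cycling, and the part of this in the ratios was not tested. Ribosomal protein genes took 34.1% of the UMIs in these 12 cells and 16.4% in wild type. Over UMIs outside ribosomal protein and mitochondrial genes, the median of all genes was -0.54, and 6 members were lower and 1 higher, as were 32.9% and 13.5% of all genes.

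All 3 D-type cyclins were among the lower members. *Ccnd2* was 47.5 against 680 CPM, 0.0699 times (0.0437 to 0.106). Per cell it ran from 0 over a median of 48.5 to 207 CPM in the 12 cells, and from 0 over a median of 637 to 1879 CPM in wild type, so that the highest of the former lay below the wild-type median. *Ccnd1* was 13 against 123 CPM, 0.105 times (0.0384 to 0.231), found in 4 of 12 and 97 of 125 cells. *Ccnd3* was 43.2 against 166 CPM, 0.260 times (0.158 to 0.404).

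*Ccne1* was not found in any of the 12 cells. Set at a floor of 3 UMIs over the group, 6.48 CPM, its level would be 3.64-fold lower than the 23.6 CPM of wild type. The exact 95% intervals are wider, reaching 7.96 CPM for the level and 0.344 times for the ratio. *Cdk6*, at 8.63 against 31.5 CPM, was 0.274 times (0.0737 to 0.719), from 4 UMIs in the 12 cells. *Cdkn1a*, at 10.8 against 42.3 CPM, was 0.255 times (0.0818 to 0.606), from 5 UMIs, of which 1 cell held 4. Among non-cycling germ cells it was 40.1 against 50.1 CPM, 0.802 (0.208 to 2.22), with under 50 UMIs and no call. After thinning to 5000 UMIs per cell the ratio over all germ cells was 1.17, in the opposite direction and without a call. *Cdkn1b* was 25.9 against 26.6 CPM, 0.974 times (0.489 to 1.77), and *Cdkn2d* 10.8 against 21.7 CPM, 0.496 times (0.157 to 1.20). *Cdkn2c* had under 50 UMIs over both libraries and was not counted.

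*Cdk4* alone of the members was higher, at 661 against 323 CPM, 2.05 times (1.80 to 2.32). It was found in 12 of 12 cells, from 248 over a median of 601 to 1095 CPM, and in 124 of 125 wild-type cells with a median of 313 and a highest value of 1127 CPM. The ranges overlap. Outside ribosomal protein and mitochondrial genes it stood at 1042 against 414 CPM, 2.52 times (2.22 to 2.85). In thinned cells *Cdk4* averaged 2.17 UMIs over the 12 cells and 1.51 UMIs over 123 wild-type cells, short of the fold. The thinned shares of cells with a *Cdk4* UMI were 75.0% and 76.4% in the same order. Sertoli markers in the germ gate were 62.6 CPM in the knockout-labelled and 811 CPM in the wild-type library, and their part in the ratios of *Ccnd2* and *Cdk6*, both high in Sertoli cells, was not tested. Over germ cells of no other gate *Ccnd2* was 37.2 against 632 CPM.

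**Figure D5:**
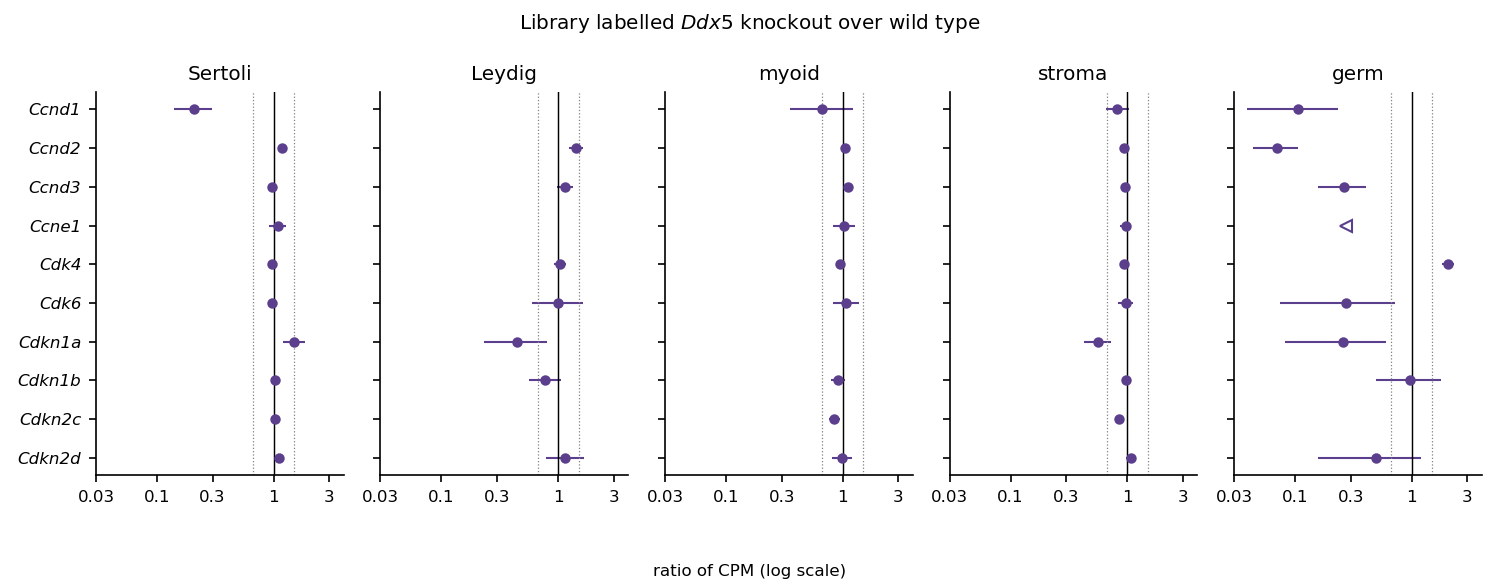
Points show CPM in the knockout-labelled library divided by CPM in wild type (log axis) in each gate for genes with at least 50 UMIs, with 95% counting intervals, and dotted lines stand at 1.5-fold either way. *Ccnd1* of Sertoli cells lies at 0.207, in germ cells *Cdk4* lies at 2.05 with the D-type cyclins at 0.0699 to 0.260, and the triangle is the bound of *Ccne1*.

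Within the Sertoli and stroma gates *Cdkn1a* was a transcript of few cells. It was found in 63 of 2256 wild-type and 75 of 1635 knockout-labelled Sertoli cells and in 59 of 3590 and 41 of 3005 stromal cells. In myoid cells, where it was lowest, 4 of 764 and 5 of 524 cells held it, and the part of free RNA in these shares was not tested. Cells with it were compared with the rest of their gate over 15 p53 target genes and 11 genes known to respond to tissue dissociation. Over all cells of a gate, 12 of 14 tested p53 targets in wild-type and 8 of 13 in knockout-labelled Sertoli cells were past the fold upwards, beside 16.3% and 4.01% of all genes. In stroma 12 of 15 and 6 of 13 were, beside 14.7% and 8.07%. The median depth of wild-type Sertoli cells was 26423 UMIs with *Cdkn1a* and 13646 UMIs without it, and the part of depth in the counts was not tested.

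Among cells that met no other gate, a restriction chosen after seeing the data, 10 of 13 and 9 of 13 p53 targets were past the fold upwards in Sertoli cells, beside 2.84% and 4.30% of all genes. In stroma 12 of 14 and 6 of 13 were, beside 6.09% and 7.09%. The largest ratios in wild-type stroma were those of *Sesn2*, a stress-induced sestrin, at 23.3 against 1.91 CPM, a ratio of 12.2 (6.27 to 22.2), *Trp53inp1*, with a ratio of 9.80 (6.65 to 14.1), and *Plk2*, a polo-like kinase, with a ratio of 8.06 (4.60 to 13.4). *Ccng1*, cyclin G1, was higher in Sertoli cells of both libraries, with ratios of 3.79 (2.81 to 5.03) and 3.62 (2.77 to 4.66). *Btg2* went the other way in knockout-labelled stroma, at 47.6 against 89.0 CPM.

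The dissociation list had 0 to 4 of 10 or 11 tested genes past the fold upwards over all Sertoli or stromal cells of a library, and 1 to 2 among those of no other gate. Its largest ratio was that of *Atf3* in knockout-labelled stroma, at 23.5 against 1.97 CPM, followed by *Hspa1b*, at 11.7 against 3.23 CPM, and *Hspa1a*, at 25.0 against 11.9 CPM. In wild-type germ cells, of which 64 held *Cdkn1a* and 61 did not, 0 of 12 p53 targets and 0 of 7 dissociation genes were past the fold upwards, beside 2.57% of all genes. Among germ cells of no other gate, 36 with and 31 without it, 1 of 9 p53 targets, *Btg2*, and 3 of 6 dissociation genes, *Fos*, *Junb* and *Dnajb1*, were past it, beside 3.14%. Over all wild-type germ cells *Mdm2*, the p53 ligase, was at 166 against 155 CPM, a ratio of 1.07.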

How the data were processed

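Whole testes of P2 mice were profiled by droplet single-cell RNA-seq. The authors deposited 1 table of raw UMI counts per gene and barcode. The submitters' processing notes name Cell Ranger 3.1.0, Seurat 3.1.5 and GRCm38, and the study's methods add GFP and CRE to the reference. The deposited counts were not normalized. Barcodes with suffix 3 were taken as wild type and those with suffix 4 as the library labelled *Ddx5* knockout, a mapping that rests on the stated cell numbers. The 16 labelled samples could not be told apart within a genotype, so cells were pooled by genotype.

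Counts were summed per gate, divided by the summed UMIs and multiplied by 1000000 (CPM), with exact 95% intervals (Python 3.11.15, NumPy 2.4.6, SciPy 1.17.1, pandas 2.3.3). Doublets were called with Scrublet in scanpy 1.11.5 and kept. No test was run, since each genotype was 1 library. Where a gate had 0 UMIs, 3 UMIs in that gate served as the floor. The steps that give ratios, intervals and calls were tested on simulated Poisson sums, the model that the intervals assume. Whether counting used strand is not given in the sources used here. *Ccnd1*, *Ccnd2*, *Ccnd3*, *Cdk4*, *Cdk6* and *Cdkn1a* overlap a gene on the other strand, whose reads are told apart only if counting used strand. Named among further genes were the 3 largest and the 3 smallest ratios of the pathway list and the 2 genes most like each member. The members, gates and lists were chosen with earlier results of these data known.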

Additional observations from a re-analysis of the deposited data

Results flagged for a closer look

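*Ccnd2* in cycling against non-cycling cells stood out because every library of 1 cell type went one way and every library of another type the opposite way. In Leydig cells its level was 3.19 times as high in cycling cells of wild type and 3.72 times in the knockout-labelled library. In myoid cells the ratios were 0.630 and 0.470, and in stroma 0.442 and 0.420. The difference between the cell types was not tested. The cycling Leydig cells numbered 5 and 9, all of which also met another gate and which held 322 and 447 CPM of *Amh*. The part of Sertoli RNA was not tested.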

How the results depend on the processing

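Each genotype was 1 library, cells are not replicates, and intervals cover counting error only. No paired analysis was possible because barcodes carry no library number. Of 696 ratios of single members computed under other settings, 596 lay within the counting interval of the reported ratio, 92 lay outside it, and 8 that had been past the fold changed direction. The counts of members and pairs that differed by more than 1.5 times from those reported are given here. The causes were not tested. With barcodes limited to 2500 or more genes and no more than 5% of UMIs from mitochondrial genes, 0 of 4 members were higher in cycling wild-type germ cells, 2 somatic pairs were higher in the knockout-labelled library, and the ratio of *Cdkn1a* between libraries in Leydig cells was 3.44. Counts of pairs higher in that library were 1 over every barcode, 1 without cells of more than 1 gate, 2 over cells of 8000 to 30000 UMIs, 1 in cells thinned to 5000 UMIs, 1 outside ribosomal protein and mitochondrial genes, 1 with equal weight per cell and 2 at the lower fold tried. Counts of pairs lower in it were 1 over cells of 8000 to 30000 UMIs and 0 after thinning. Without cells of more than 1 gate 4 members had the same leading somatic gate in both libraries. With cycling set at 8 or more UMIs and non-cycling at 0, 2 members were higher and 1 lower in cycling germ cells. After thinning, 0 of 4 were higher there, and 1 member was higher in germ cells than in every somatic gate. Somatic pairs lower in cycling cells numbered 1 at 2-fold and 4 at the lower fold tried. In cycling wild-type Sertoli cells the ratio of *Ccnd1* was 0.719 without cells of more than 1 gate, 0.339 over cells of 8000 to 30000 UMIs and 0.768 after thinning, and that of *Cdkn1a* was 0.830 and 0.540 under the first and second of these. After thinning, *Cdk6* in cycling myoid cells of the knockout-labelled library stood at 1.05 and *Cdkn1a* between germ cells of the libraries at 1.17. *Ccne1* had 0 UMIs in knockout-labelled germ cells under all settings.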

Other observations

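Cells that met no gate numbered 236 in wild type and 175 in the knockout-labelled library. They held *Cdkn1a* at 42.0 and 48.2 CPM, *Cdkn1b* at 69.8 and 54.6 CPM and *Ccnd1* at 31.4 and 24.7 CPM. Among them were macrophage transcripts, with *Lyz2* at 931 and 3305 CPM, *Tyrobp* at 608 and 968 CPM and *C1qa* at 569 and 612 CPM, beside the stromal *Dcn* at 1797 and 1489 CPM.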
